A study of Rattus norvegicus with 96 samples.

Results

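The ubiquitin-proteasome system marks proteins with ubiquitin and degrades the marked ones. An E1 enzyme activates ubiquitin, an E2 enzyme (Ube2 genes) carries it, and an E3 ligase passes it to the substrate. HECT ligases (Ube3 and Hect genes) take the ubiquitin onto themselves first, F-box proteins (Fbxl, Fbxo and Fbxw genes) bring substrates to the SCF ligase complex, and TRIM proteins are largely RING-type ligases. Deubiquitinases of the USP family remove ubiquitin again. The 26S proteasome consists of a 20S core, built of alpha rings (Psma genes) and catalytic beta rings (Psmb genes), and a 19S cap, whose ATPases (Psmc genes) unfold the substrate and whose other subunits (Psmd genes) bind and deubiquitinate it. In neurons this system takes part in the turnover of synaptic proteins.

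The genes described here were 125 of the 17637 genes in the count table. They were chosen by symbol, as those whose name begins with Psma to Psmd, Usp, Ube2, Ube3, Fbxl, Fbxo, Fbxw, Trim or Hect, without Fbxl17. Symbols were taken from the study's own gene tables, which name 7462 of the genes, so a family gene that no table lists could not be included. All 125 passed the filter on low counts. They comprised 29 proteasome genes (7 of the 20S alpha, 7 of the 20S beta, 6 of the 19S ATPase and 9 of the 19S non-ATPase class), 14 E2 enzymes, 4 HECT ligases, 31 F-box genes, 25 TRIM genes and 22 USP genes. Of the 125, 101 stood in a table of genes with a nominal nicotine difference in at least 1 of the 6 sensitization comparisons, 27 stood in at least 2, and 24 stood only in tables from self-administration. The nicotine differences therefore helped to choose these genes and are given as description, without a test, whereas the differences between regions were not used to choose them and were tested.

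The libraries came from F1 rats of the inbred strains F344 and BN, in both directions of the cross, in early adulthood. Rats received nicotine (NIC, 0.4 mg/kg of base) or saline (SAL) once a day for 4 days, the treatment used for nicotine sensitization (SST) and brains were taken on day 17 by the labels. The ventral tegmental area (VTA), the core of the nucleus accumbens (NAc core) and its shell (NAc shell) were dissected from the same 32 rats and sequenced as bulk RNA, so fewer cells of a type and less RNA per cell cannot be told apart. The 94 libraries used here made 12 groups of 8, except for 7 in the male VTA SAL and the female NAc core NIC groups. All males were in box 1 and all females in box 3, and nearly every prep batch held a single sex and mostly a single treatment.

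Library totals ran from about 15868500 to 27736900 counts (median 19874900). The dopamine transporter Slc6a3 had a median of 855 CPM (TMM-scaled read counts for every 1e6 of the library) in the VTA and at most 1.15 CPM in the NAc, and the dopamine receptor Drd1 had medians of 92.3 CPM in the NAc core and 82.6 CPM in the NAc shell against 1.27 CPM in the VTA. The labels of 3 libraries were less well borne out. Female VTA NIC replicate 2 held 22.6 CPM of Slc6a3, where the lowest of the other VTA libraries held 402 CPM. Male SAL replicate 1 held 9.28 CPM of Drd1 in the NAc core and 5.09 CPM in the NAc shell, where the lowest of the others held 22.7 and 51.1 CPM.

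The promoters of 4 proteasome genes that recur in the results are shown, and no link of their sequence to expression was tested. Each is the RefSeq window on GRCr8 of 250 bases before to 50 bases after the annotated start, written 5′ to 3′ on the strand of the gene, and capitals mark CCGGAA, the core bound by ETS-type factors, and TGACNNNGC, the antioxidant response element bound by Nfe2l1 and Nfe2l2, on either strand.
Psmb6 (chr10:55737638-55737937, plus strand): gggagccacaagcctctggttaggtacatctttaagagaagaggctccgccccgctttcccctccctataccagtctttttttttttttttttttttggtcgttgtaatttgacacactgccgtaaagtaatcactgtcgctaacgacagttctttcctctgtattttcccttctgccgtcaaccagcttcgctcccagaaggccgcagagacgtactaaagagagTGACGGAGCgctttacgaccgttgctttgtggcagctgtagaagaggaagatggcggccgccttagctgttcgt
Psmc3 (chr3:97487393-97487692, plus strand): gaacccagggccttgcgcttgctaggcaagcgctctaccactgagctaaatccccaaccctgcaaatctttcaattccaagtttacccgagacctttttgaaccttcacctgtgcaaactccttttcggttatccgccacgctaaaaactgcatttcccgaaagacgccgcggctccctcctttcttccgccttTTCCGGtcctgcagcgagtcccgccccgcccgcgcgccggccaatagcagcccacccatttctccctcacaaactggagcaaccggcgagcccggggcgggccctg
Psmc5 (chr10:91687303-91687602, plus strand): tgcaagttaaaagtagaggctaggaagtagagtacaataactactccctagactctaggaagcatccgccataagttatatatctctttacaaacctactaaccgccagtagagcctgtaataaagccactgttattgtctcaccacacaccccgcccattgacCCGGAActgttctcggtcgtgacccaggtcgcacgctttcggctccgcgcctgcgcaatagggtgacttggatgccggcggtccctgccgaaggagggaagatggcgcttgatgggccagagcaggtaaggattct
Psmd9 (chr12:39018215-39018514, minus strand): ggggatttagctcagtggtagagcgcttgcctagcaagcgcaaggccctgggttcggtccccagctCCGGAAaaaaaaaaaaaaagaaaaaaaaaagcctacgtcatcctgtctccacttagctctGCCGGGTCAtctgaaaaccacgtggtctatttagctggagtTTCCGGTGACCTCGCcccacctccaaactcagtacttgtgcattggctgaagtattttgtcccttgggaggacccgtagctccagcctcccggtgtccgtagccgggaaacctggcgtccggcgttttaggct

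A promoter window was found for 103 of the 125 genes, 25 of them proteasome genes. CCGGAA stood in 14 of the 25 proteasome promoters (56%), in 22 of the 78 other promoters (28.2%) and in 15.8% of the 27457 promoters of the reference. CCAAT also stood in 14 of the 25 (56%), against 24.4% of the other 78 and 37.7% of all promoters. The GC box GGGCGG stood in 17 of the 25 (68%), in 62.8% of the other 78 and in 34.9% of all. TGACNNNGC stood in 4 of the 25 (Psma3, Psmb2, Psmb6 and Psmd9; 16%), in 14.1% of the other 78 and in 12.2% of all promoters. The E-box CACGTG stood in 4 of the 25 (16%), in 5.13% of the other 78 and in 6.65% of all. These 5 motifs were chosen after such shares had been seen, were searched on both strands and may overlap, as TTCCGG and TGACCTCGC adjoin in Psmd9. They are matches of letters, not binding sites.

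The first comparison asked how the genes differed between the regions, whatever the sex or treatment. Between VTA and NAc core, 13 of the 125 genes passed the test with more than 2-fold (6 F-box, 5 TRIM, 1 E2, 1 USP and no proteasome gene), where 18.7% of all genes did. At any fold, 103 of the 125 genes differed between these regions (57 higher and 46 lower in the VTA; edgeR quasi-likelihood test, Benjamini-Hochberg adjusted p under 0.05 over 16879 genes), in a comparison in which 81.6% of all genes did. Between VTA and NAc shell 107 genes differed (57 higher, 50 lower; 80.8% of all genes), and between NAc core and NAc shell 37 (18 higher, 19 lower in the core; 32.3% of all genes). The shares at any fold lay near the background, and the share past 2-fold lay below it. Without the 3 libraries named above the counts were 105, 109 and 41, and the shares over all genes in that fit are not given here.

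**Figure D1:**
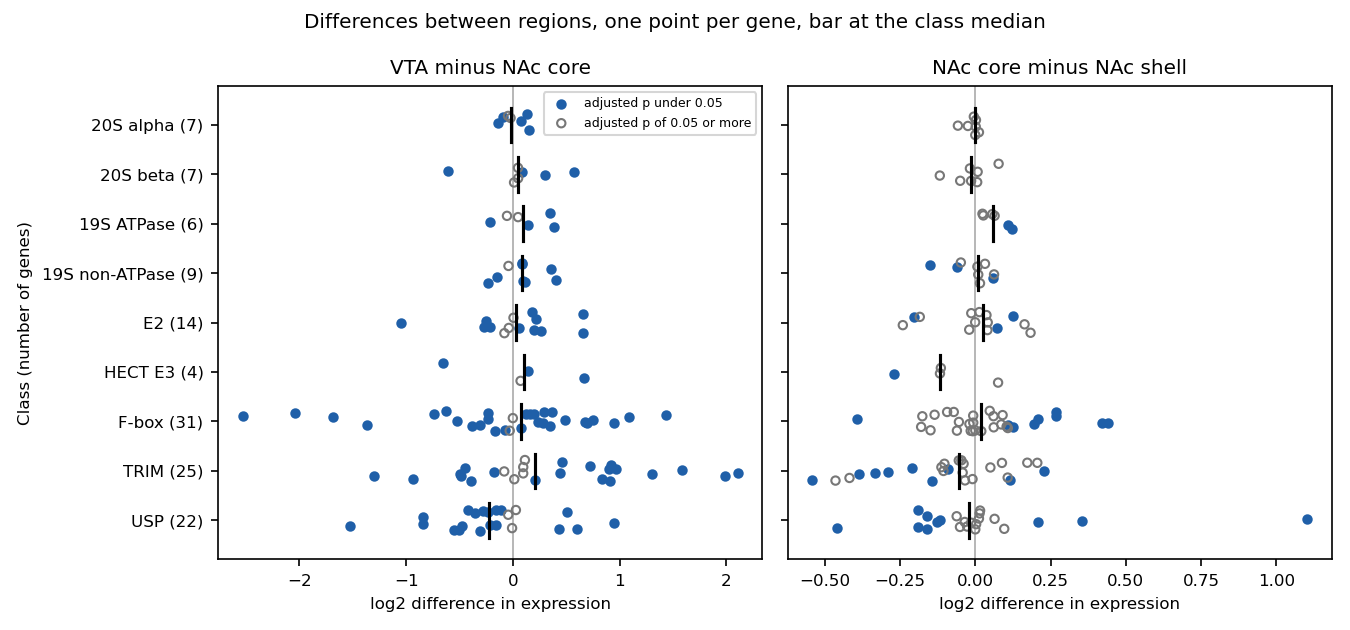
Log2 difference (horizontal axis) of each of the 125 genes by class (vertical axis), VTA minus NAc core on the left and NAc core minus NAc shell on the right; filled points had an adjusted p under 0.05, open points did not, and bars mark class medians. Proteasome points lie within -0.61 and 0.57 on the left, while F-box points reach -2.53 and TRIM points 2.11.

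Among the 29 proteasome genes, 15 were higher and 6 lower in the VTA than in the NAc core (41.3% and 40.3% of all genes), with a median log2 difference of 0.08 against 0.01 over all genes, and none differed by more than 2-fold. The 20S beta genes held the widest contrast. Psmb6, a catalytic beta subunit of the constitutive core, ranged from 47.8 to 88.9 CPM (median 62.5) in the 31 VTA libraries, from 31.7 to 58.6 (median 42.2) in the 31 NAc core libraries and from 35.9 to 73.8 (median 45.5) in the 32 NAc shell libraries. It was higher in the VTA than in the core by 0.57 ± 0.06 (log2, SE; adjusted p = 4.5e-16). Psmb10, the immunoproteasome counterpart of Psmb7, ran the other way. Its levels were 18.6 to 26.9 CPM (median 22.1) in the VTA, 26.8 to 42.5 (median 34.0) in the core and 21.9 to 41.3 (median 32.7) in the shell, lower in the VTA than in the core by 0.61 ± 0.04 (adjusted p = 6.7e-26). The VTA and core ranges of Psmb10 met only at their edge. Psmb8, another immunoproteasome subunit, was higher in the VTA than in the core by 0.30 ± 0.08 (adjusted p = 0.00035), so the 2 immunoproteasome genes that could be named lay on opposite sides. Psmb7, with medians of 180, 173 and 174 CPM in VTA, core and shell, did not pass the test in any pair of regions.

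Of the proteasome classes, the alpha subunits had the narrowest span of differences between VTA and core. Even so, 5 of the 7 passed the test (81.6% of all genes did). Psma6 was higher in the VTA than in the core by 0.15 ± 0.03 (adjusted p = 3.4e-06), Psma4 was lower by 0.14 ± 0.03 (adjusted p = 1.8e-06), and Psma7 had medians of 117, 118 and 121 CPM in VTA, core and shell. Of the 19S ATPases, Psmc5 had a median of 376 CPM in the VTA, 294 in the core and 274 in the shell. Psmc5 was higher in the VTA than in the core by 0.38 ± 0.04 (adjusted p = 1.2e-15), and Psmc1 by 0.35 ± 0.03 (adjusted p = 1.2e-19). Psmc3 went against them, with medians of 143 CPM in the VTA, 167 in the core and 155 in the shell. All 6 ATPase genes had higher estimates in the core than in the shell, of which Psmc3 (0.12 ± 0.03; adjusted p = 0.00031) and Psmc5 (0.11 ± 0.04; adjusted p = 0.02) passed the test.

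In the rest of the cap, Psmd12 was higher in the VTA than in the core by 0.41 ± 0.03 (adjusted p = 3.5e-22). Psmd9, which by its symbol stands with the cap subunits but acts as an assembly chaperone, was higher in the VTA than in the core by 0.36 ± 0.03 (adjusted p = 5.3e-17) and lower in the core than in the shell by 0.15 ± 0.03 (adjusted p = 0.00017). Psmd2, a scaffold subunit, was higher in the VTA than in the core by 0.08 ± 0.02 (adjusted p = 0.00065). Outside the chosen genes, the transcription factor Nfe2l1, known to drive proteasome genes, was higher in the VTA than in the core by 0.72 ± 0.06 (adjusted p = 4.2e-21), and the protease Ddi2, which cuts it, was not called different (0.01 ± 0.02). The E1 enzyme Uba6 was higher in the VTA by 0.20 ± 0.05 and the E1 enzyme Uba1 lower by 0.07 ± 0.02, each past the test.

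Of the 14 E2 enzymes, 7 were higher and 4 lower in the VTA than in the NAc core (41.3% and 40.3% of all genes). Ube2h had medians of 226 CPM in the VTA, 189 in the core and 183 in the shell and was higher in the VTA than in the core by 0.27 ± 0.02 (adjusted p = 2e-20). Ube2q2 was higher by 0.65 ± 0.07 (adjusted p = 1.2e-14). Ube2c, which serves the anaphase-promoting complex in dividing cells, was lower in the VTA by 1.05 ± 0.12 (adjusted p = 2.2e-13) at medians of 0.96 CPM in the VTA and 1.86 CPM in the core. Ube2o, an enzyme with E2 and E3 activity, was graded across all regions, with medians of 132 CPM in the VTA, 157 in the core and 183 in the shell, and was lower in the core than in the shell by 0.20 ± 0.03 (adjusted p = 3.4e-07).

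The HECT ligase Ube3a, which is lost in Angelman syndrome, ranged from 14.3 to 29.2 CPM (median 22.4) in the VTA, from 10.3 to 20.6 (median 14.0) in the core and from 9.62 to 21.6 (median 15.0) in the shell. Most VTA libraries lay above most NAc libraries, with some overlap, and the VTA was higher than the core by 0.67 ± 0.06 (adjusted p = 9.1e-18). Core and shell were not called different for Ube3a (-0.12 ± 0.06; adjusted p = 0.13). Hectd3 was lower in the VTA than in the core by 0.65 ± 0.07 (adjusted p = 2.4e-15). Hectd4 was lower in the core than in the shell by 0.27 ± 0.06 (adjusted p = 0.00033).

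Of the 31 F-box genes, 16 were higher and 13 lower in the VTA than in the core (41.3% and 40.3% of all genes). Fbxl16, a neuronal F-box protein, ranged from 27.0 to 84.0 CPM (median 43.6) in the VTA, from 107 to 291 (median 183) in the core and from 81.3 to 391 (median 130) in the shell. No VTA library reached the lowest core library, and the VTA was lower than the core by 2.05 ± 0.10 (adjusted p = 1.9e-34), while the core was higher than the shell by 0.44 ± 0.09 (adjusted p = 7.6e-05). Fbxo39 was lower in the VTA than in the core by 2.53 ± 0.14 (adjusted p = 1.5e-29) at a VTA median of 0.37 CPM. Fbxo2, a brain F-box protein that recognises glycoproteins, ran the other way, with 206 to 330 CPM (median 264) in the VTA, 101 to 168 (median 123) in the core and 103 to 171 (median 131) in the shell. All VTA libraries lay above all NAc libraries for Fbxo2, and the VTA was higher than the core by 1.09 ± 0.04 (adjusted p = 9.2e-42). Fbxw7, the substrate receptor for cyclin E and Myc, was lower in the VTA than in the core by 1.37 ± 0.07 (adjusted p = 8.4e-32).

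**Figure D2:**
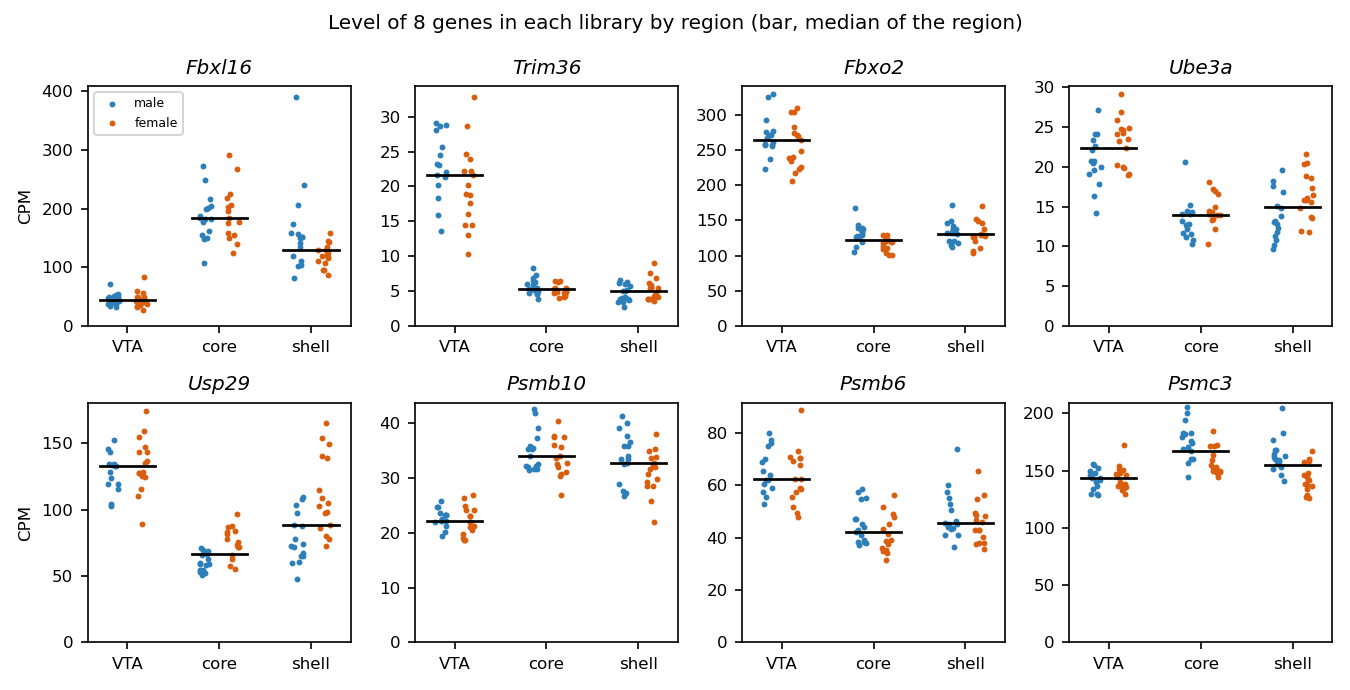
Level in CPM (vertical axes, from 0) of 8 genes in each library of the VTA, NAc core and NAc shell, males in blue and females in orange, with a bar at the median of the region. Fbxl16 and Fbxo2 separate the VTA from the NAc core without overlap in opposite directions, whereas Psmb6, Ube3a and Psmc3 overlap.

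Of the 25 TRIM genes, 13 were higher and 7 lower in the VTA than in the core (41.3% and 40.3% of all genes), with a median log2 difference of 0.21. Trim36, a RING ligase, ranged from 10.3 to 32.9 CPM (median 21.6) in the VTA, from 3.89 to 8.31 (median 5.29) in the core and from 2.71 to 9.06 (median 4.98) in the shell. The VTA libraries all lay above the NAc libraries, by 1.99 ± 0.09 against the core (adjusted p = 4e-37). Trim44 was higher by 1.31 ± 0.12 (adjusted p = 9.6e-17). Trim46, which organises microtubules at the axon initial segment, was lower in the VTA than in the core by 1.31 ± 0.04 (adjusted p = 5.1e-47), and Trim35 by 0.50 ± 0.03 (adjusted p = 3.4e-33). Against the shell, 7 of the 25 TRIM genes were lower in the core and 2 higher (16.5% and 15.8% of all genes). Trim6 was lower by 0.54 ± 0.19 (adjusted p = 0.022) at medians of 0.85 and 1.24 CPM.

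Of the 22 USP genes, 15 were lower and 4 higher in the VTA than in the core (median -0.22), where 40.3% of all genes were lower and 41.3% higher. Usp43 was lower in the VTA by 1.53 ± 0.20 (adjusted p = 9.2e-11) and higher in the core than in the shell by 1.10 ± 0.20 (adjusted p = 4.1e-06), at medians of 0.99, 2.95 and 1.20 CPM in VTA, core and shell. Usp29 was among the 4 that were higher in the VTA, with 89.2 to 174 CPM (median 133) there, 50.6 to 96.8 (median 66.5) in the core and 47.6 to 165 (median 88.3) in the shell. The difference was 0.95 ± 0.07 from the core (adjusted p = 4.1e-24), and its shell libraries spread over nearly the whole span. Usp5, which disassembles free ubiquitin chains, had medians of 249, 265 and 266 CPM in VTA, core and shell and was lower in the VTA than in the core by 0.11 ± 0.02 (adjusted p = 1.2e-05).

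In all, 13 genes separated the VTA from the NAc core without any overlap of the libraries (4 above and 9 below, where 4.83% and 5.05% of all genes did), 9 separated it from the NAc shell (3 above and 6 below; 3.09% and 3.5% of all genes), and none separated core from shell (0.0118% of all genes). These counts lay near the background. The markers of other cells also differed between the regions. The summed level of 6 oligodendrocyte genes had group medians of 33502 to 43093 CPM in the VTA and 8751 to 12824 CPM in the NAc; its part in the differences was not tested.

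Within a group of libraries, the proteasome genes moved together. After each gene was set to its group mean, the mean pairwise correlation among the 29 proteasome genes was 0.40 over the 94 libraries, against 0.00175 among the 14452 genes tested with at least 1 CPM. It was 0.52 among the 19S ATPases and among the 20S alpha genes, 0.40 among the 19S non-ATPases and 0.33 among the 20S beta genes. The other classes showed little of this, with 0.20 for the HECT ligases, 0.11 for the E2 enzymes and 0.02 to 0.04 for F-box, TRIM and USP genes. Psmb7 (0.57), Psmc2 (0.57) and Psmd6 (0.54) had the highest mean correlation with the other proteasome genes, and the immunoproteasome gene Psmb8 had the lowest (-0.11), below Psmd11 (0.10) and Psmb10 (0.17). With the means of group and prep batch removed, the value among the 29 genes was 0.33 over 89 libraries. The genes share libraries and scaling, so this is a description, and a count of proteasome genes on one side in a comparison is not a count of independent observations.

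The second comparison asked how NIC rats differed from SAL rats in each region and sex. Fitted within each region and sex, no gene of the whole table passed an adjusted p of 0.05 by edgeR, while 415 to 1709 genes had an unadjusted p under 0.05. In a single edgeR fit of all 12 groups 6 genes passed in the female VTA, 2 in the female NAc shell and 1 in the male VTA, and with prep batch as a term 1 passed in the male NAc core. By DESeq2 0 to 9 genes of the whole table did, Usp27x in the female VTA and Hectd3 in the female NAc shell among them, which is a description, since both were chosen through such lists. At an unadjusted p under 0.05, the mark used to list most of these genes, 34 of the 125 lay in the male NAc core (13 higher and 21 lower in NIC), where 9.83% of all genes did (5.78% higher, 4.06% lower). There were 11 in the male NAc shell (2 higher, 9 lower; 2.46% of all genes, 1.02% higher and 1.44% lower) and 15 in the male VTA (5 higher, 10 lower; 5.62% of all genes, 2.35% higher and 3.28% lower). There were 15 in the female NAc core (8 higher, 7 lower; 6.45% of all genes, 2.87% higher and 3.57% lower), 21 in the female NAc shell (11 higher, 10 lower; 10.1% of all genes, 5.25% higher and 4.88% lower) and 27 in the female VTA (22 higher, 5 lower; 9.24% of all genes, 4.04% higher and 5.2% lower). With prep batch as a term the counts were 27 in the male NAc core (1956 of all 16879 genes), 17 in the male NAc shell (2013) and 6 in the male VTA (763). In females they were 2 in the NAc core (774 of all genes), 6 in the NAc shell (629) and 2 in the VTA (295). Without that term the counts over all genes were 1660, 415, 949, 1088, 1709 and 1559 in the same order. Leaving out 1 library gave as few as 8 in the male VTA (without NIC replicate 13), 21 in the male NAc core (without NIC replicate 9), 7 in the male NAc shell (without SAL replicate 5) and 15 in the female VTA (without NIC replicate 6). Without NIC replicate 6 of the female VTA the count over all genes also fell, from 1559 to 1192. Since the lists fixed the counts of the 125 genes, nothing is read from them. Just inside that mark in the male NAc core lay Psmd6 (-0.14 ± 0.07) and Psmc2 (-0.15 ± 0.07), and just outside it Ube2c (0.45 ± 0.22) and Usp19 (0.11 ± 0.05).

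Most proteasome genes had lower estimates in NIC in the male NAc and higher estimates in NIC in the 3 female comparisons, and the male VTA was split; with prep batch as a term the female NAc turned and most were lower in the male VTA, as given further on. In the male NAc core 28 of the 29 were lower in NIC (median log2 difference -0.11), where 52.0% of all genes were lower and 48.0% higher; 14 of the 28 were nominal at 0.05. In the male NAc shell 25 of 29 were lower (median -0.08; 51.6% of all genes lower, 48.4% higher) and in the male VTA 16 of 29 (median -0.01; 49.2% lower, 50.8% higher). In females 24 of 29 were higher in the NAc core (median 0.05; 50.4% of all genes higher, 49.6% lower), 27 in the NAc shell (median 0.07; 51.8% higher, 48.2% lower) and 27 in the VTA (median 0.09; 54.9% higher, 45.1% lower). The differences are small, the estimates share libraries, and the difference between the sexes was not tested.

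The summed level of the 29 genes shows the spread behind these estimates. In the male NAc core it ran from 3153 to 3514 CPM (median 3281) in SAL and from 2676 to 3353 CPM (median 3058) in NIC. Of the 8 NIC libraries, 6 lay below the lowest SAL library, and the NIC mean differed from the SAL mean by -7.84%. The male NAc shell ran from 3072 to 3589 CPM (median 3167) in SAL and from 2830 to 3394 CPM (median 3027) in NIC, with 5 of 8 NIC libraries below all SAL libraries. The groups overlapped in both regions. In the male VTA the medians were 3281 CPM in SAL and 3388 CPM in NIC, while the NIC mean differed from the SAL mean by -0.93%. In the female VTA it ran from 3037 to 3470 CPM (median 3293) in SAL and from 3119 to 4009 CPM (median 3419) in NIC, with 4 of 8 NIC libraries above all SAL libraries. The female NAc core had medians of 2990 CPM in SAL and 3135 CPM in NIC, and the female NAc shell 2938 and 3143 CPM.

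**Figure D3:**
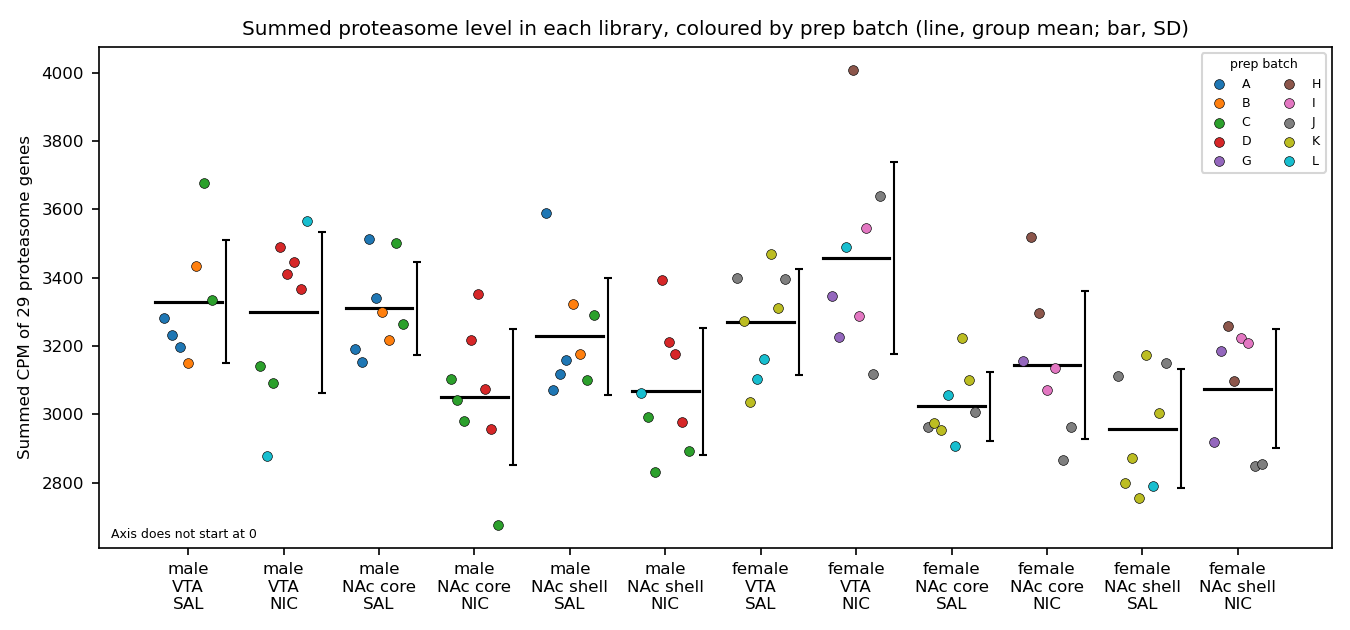
Summed CPM of the 29 proteasome genes (vertical axis, not starting at 0) in each of the 94 libraries by sex, region and treatment, coloured by prep batch, with the group mean as a line and the SD as a bar beside it. In the male NAc core 6 of 8 NIC points lie below the lowest SAL point, and few batches hold both treatments of a sex and region.

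Prep batch could be separated from treatment only in part, since batch C in males, batch J in females and, in the VTA, batch L in females were the ones that held both treatments within a region and sex. Within batch C of the male NAc core, the 4 NIC libraries had 2676 to 3104 CPM and the 2 SAL libraries 3263 and 3503 CPM, without overlap. Within batch C of the male NAc shell, 3 NIC libraries had 2830 to 2992 CPM and 2 SAL libraries 3099 and 3292 CPM. Within batch J of the female NAc shell the order was opposite to that of the whole groups, with 2848 and 2853 CPM in 2 NIC libraries and 3113 and 3149 CPM in 2 SAL libraries. In batch J of the female NAc core the 2 NIC libraries had 2867 and 2963 CPM and the 2 SAL libraries 2962 and 3005 CPM. Within batch C of the male VTA the 2 NIC libraries had 3092 and 3143 CPM and the 2 SAL libraries 3333 and 3678 CPM, without overlap. In the female VTA, batch J had 3119 and 3640 CPM in 2 NIC libraries and 3396 and 3400 CPM in 2 SAL libraries, and batch L had 3491 CPM in 1 NIC library and 3103 and 3162 CPM in 2 SAL libraries.

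With prep batch as a term in the fit, 28 of the 29 proteasome genes had a lower estimate in the male NAc core (median -0.18), 27 were lower in the male NAc shell (median -0.16) and 26 in the male VTA (median -0.12). In the female VTA 25 of 29 were higher (median 0.08). In the female NAc the direction turned, with 20 of 29 lower in the core (median -0.07) and 26 of 29 lower in the shell (median -0.11). Over all genes the medians in these fits lay between -0.0096 in the male NAc shell and 0.017 in the male VTA. The batch term rests on the few batches that held both treatments, with 2 to 4 libraries a side in the NAc.

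**Figure D4:**
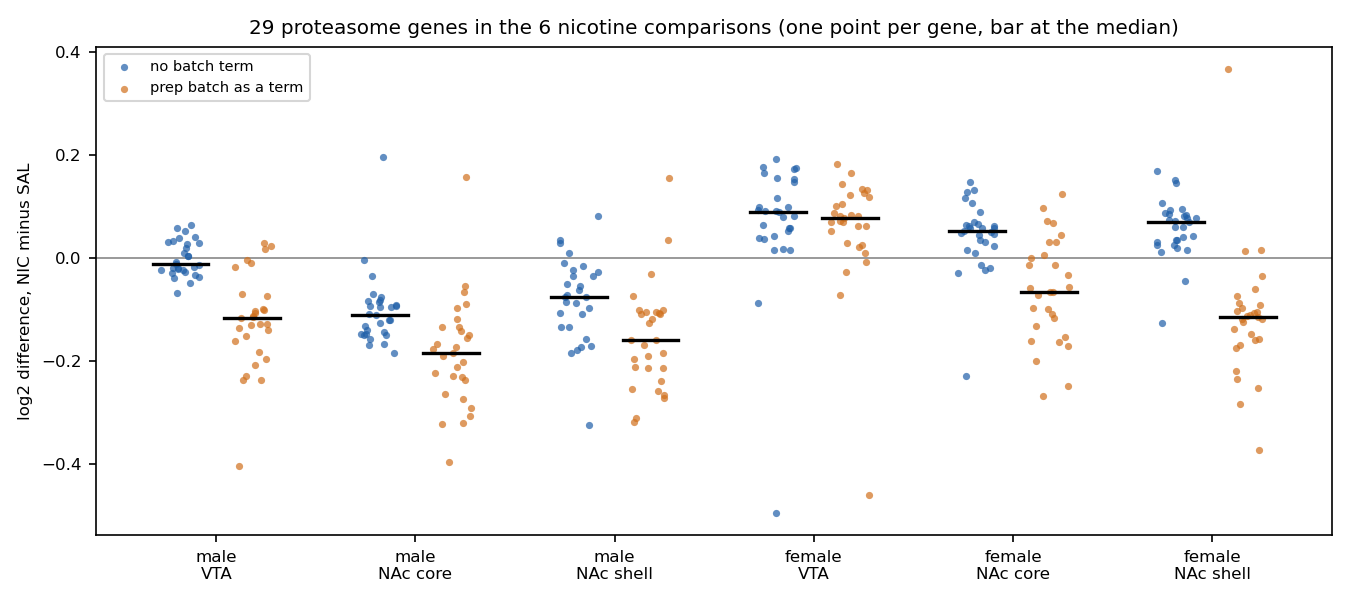
Log2 difference NIC minus SAL (vertical axis) of the 29 proteasome genes in the 6 comparisons, fitted without (blue) and with (orange) prep batch as a term; bars mark the medians. The male NAc core medians are -0.11 and -0.18, and the female NAc shell median changes from 0.07 to -0.11.

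Other markers moved beside these estimates. In the male NAc core all 5 meningeal fibroblast genes were higher in NIC (4 with an unadjusted p under 0.05), with summed levels of 118 to 226 CPM in SAL and 173 to 462 CPM in NIC. In the female NAc shell all 6 striatal projection neuron genes were lower in NIC (6 with an unadjusted p under 0.05), with summed levels of 1705 to 2443 CPM in SAL and 1069 to 2279 CPM in NIC. In the female VTA all 3 endothelial genes were lower (3 with an unadjusted p under 0.05), with 193 to 312 CPM in SAL and 151 to 210 CPM in NIC. A marker could be named only if a table of the study listed it. That held for 5 of 5 meningeal, 6 of 7 striatal and 3 of 5 endothelial genes looked for. The nominal counts of markers come partly from that choice, and the other marker sets are not given here. The part of the markers in the estimates was not tested. Without male SAL replicate 1, 27 of 29 proteasome genes were lower in the male NAc core (median -0.13) and 21 in the male NAc shell (median -0.04), and without female VTA NIC replicate 2, 27 were higher in the female VTA (median 0.10).

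Of a textbook list of 50 proteasome genes, 36 could be named, the 29 above and Adrm1, Pomp, Psme1, Psme4, Psmf1, Psmg2 and Sem1. All 36 could be named only because a table of the study listed them, so the list is not an independent check. Of the 36, 33 were lower in NIC in the male NAc core (52% of all genes), in the male NAc shell 31 (51.6%) and in the male VTA 18 (49.2%). In females 28 were higher in the NAc core (50.4% of all genes), 32 in the NAc shell (51.8%) and 31 in the VTA (54.9%). With prep batch as a term 33 of the 36 were lower in the male NAc core, 33 in the male NAc shell and 28 in the male VTA, while in females 24 were lower in the NAc core, 30 in the NAc shell and 4 in the VTA. Pomp had a lower estimate in NIC in all 6 comparisons, from -0.83 ± 0.26 in the female NAc core to -0.13 ± 0.40 in the female VTA. The activators and the inhibitor (Psme1, Psme4 and Psmf1) were mixed, with 2 of 3 higher in the male NAc core and 1 of 3 higher in the female VTA. Of the regulators that could be named, Nfe2l1 was at 0.16 ± 0.07 in the male NAc core and 0.24 ± 0.08 in the female NAc core, and Ddi2 was at 0.11 ± 0.05 and 0.01 ± 0.05 there. In the other 4 comparisons Nfe2l1 lay between -0.15 and 0.02 and Ddi2 between -0.04 and 0.08. The E1 enzymes Uba1 and Uba6 had opposite signs in 3 of the 6 comparisons, and the estimates furthest from 0 were Uba6 at -0.18 ± 0.07 in the female NAc core and Uba1 at -0.12 ± 0.05 in the male NAc core. The SCF subunit Rbx1 was lower in the 3 male and higher in the 3 female comparisons.

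Among single proteasome genes, the ATPase Psmc3 stood out in the male NAc core. It ran from 170.5 to 205 CPM (median 183) in SAL and from 145 to 182 CPM (median 164) in NIC, with overlap of the groups, for a log2 difference of -0.18 ± 0.05, or -0.32 ± 0.09 with prep batch as a term. In the other comparisons Psmc3 lay between -0.08 and 0.04. Psmb6 in the male NAc shell ran from 41.1 to 73.8 CPM (median 54.0) in SAL and from 36.5 to 46.4 CPM (median 44.6) in NIC, a difference of -0.32 ± 0.10. Psmc6, another ATPase, was higher in the female VTA, with 85.1 to 96.6 CPM (median 89.2) in SAL and 91.3 to 107 CPM (median 102) in NIC.

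Psma7, Psmc5 and Ube2e1 were listed in the NAc core of both sexes, so their values there are a description, and the difference between the sexes was not tested. Psma7 was at -0.15 ± 0.06 in males and 0.13 ± 0.05 in females (-0.014 ± 0.083 in females with prep batch as a term), Psmc5 at -0.16 ± 0.06 and 0.13 ± 0.05, and the E2 enzyme Ube2e1 at -0.13 ± 0.05 and 0.21 ± 0.06. Psmb10 was lower in NIC in the NAc core of both sexes (-0.17 ± 0.06 in males and -0.23 ± 0.06 in females). In females Psmb10 ran from 32.5 to 40.4 CPM (median 36.7) in SAL and from 26.8 to 34.0 CPM (median 31.1) in NIC. Psmb8 was lower in the female VTA (-0.50 ± 0.14), with 8.16 to 15.0 CPM (median 9.54) in SAL and 5.38 to 9.15 CPM (median 7.54) in NIC, while most other subunits there were higher.

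Among the conjugating enzymes, all 14 E2 genes had higher estimates in the female VTA (median 0.12), where 54.9% of all genes did, and 12 of 14 in the female NAc shell (51.8% of all genes). With prep batch as a term Ube2e1 was at -0.036 ± 0.084 and Ube2d2 at -0.0069 ± 0.056 in the female VTA. Ube2v2, a catalytically inactive E2 variant that works with Ube2n, was listed at -0.18 ± 0.07 in the male NAc core and stood at 0.18 ± 0.05 in the female NAc shell, where it ran from 79.1 to 95.8 CPM in SAL and from 89.0 to 107 CPM in NIC. Ube2d2 was at 0.14 ± 0.06 in the female NAc core (-0.0006 ± 0.12 with prep batch as a term) and 0.13 ± 0.05 in the female NAc shell. Ube2u, with a mean of 0.92 CPM, was higher in the male VTA (0.81 ± 0.35) and the female VTA (0.55 ± 0.25).

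Of the HECT ligases, Hectd4 in the male NAc core ran from 97.0 to 154 CPM (median 140) in SAL and from 131 to 224 CPM (median 178) in NIC, a difference of 0.37 ± 0.10, or 0.45 ± 0.17 with prep batch as a term. Hectd3 in the female NAc shell ran from 53.0 to 65.3 CPM (median 53.4) in SAL and from 39.6 to 55.4 CPM (median 41.5) in NIC, a difference of -0.34 ± 0.07, or -0.27 ± 0.12 with prep batch. The groups overlapped in both genes, in Hectd3 through a single NIC library. Ube3a stood at -0.23 ± 0.11 in the male NAc core and 0.29 ± 0.11 in the female NAc shell, and between -0.11 and 0.08 elsewhere.

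The F-box genes had mixed directions. Fbxw7 in the male VTA ran from 27.7 to 51.2 CPM (median 32.0) in SAL and from 21.8 to 28.7 CPM (median 26.7) in NIC, a difference of -0.38 ± 0.11, which was -0.10 ± 0.20 with prep batch as a term. Fbxl19, which binds unmethylated CpG islands, was listed at 0.11 ± 0.05 in the male NAc core and -0.18 ± 0.05 in the female NAc shell. Fbxl5, an iron sensor, was higher in the male NAc shell (0.14 ± 0.06), as was Fbxo28 (0.22 ± 0.08). Fbxw5 was lower in the female NAc core (-0.13 ± 0.05) and VTA (-0.11 ± 0.03), Fbxo10 was listed in the male NAc core (0.21 ± 0.07), and Fbxo2 lay between -0.10 and 0.15 throughout.

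Among TRIM genes, Trim14, an antiviral signalling adaptor, was the only one of the 125 whose NIC and SAL libraries did not overlap in the male NAc core, where 0.0296% of all genes were higher without overlap. It ran from 1.00 to 1.69 CPM in SAL and from 1.73 to 2.39 CPM in NIC, a difference of 0.49 ± 0.15. Trim30c was lower in the male NAc core (-0.19 ± 0.05). Trim11 in the male VTA ran from 27.3 to 32.9 CPM (median 28.8) in SAL and from 31.5 to 35.5 CPM (median 33.7) in NIC (0.19 ± 0.05), and Trim44 was lower there (-0.50 ± 0.17). Trim17 was lower in the female NAc core (-0.36 ± 0.08), Trim47 lower in the female VTA (-0.38 ± 0.11), Trim46 lower in the female NAc shell (-0.14 ± 0.06) and Trim36 higher in the female NAc shell (0.39 ± 0.17) and lower in the male VTA (-0.29 ± 0.13).

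Among deubiquitinases, Usp27x in the female VTA was the other gene whose libraries did not overlap, with 10.9 to 13.8 CPM in SAL and 14.0 to 16.7 CPM in NIC (0.0237% of all genes were higher without overlap there). As with the other nicotine counts, nothing is read from these shares. The difference was 0.31 ± 0.07, or 0.17 ± 0.10 with prep batch as a term. Usp36, a nucleolar deubiquitinase, and Usp19, an enzyme of the endoplasmic reticulum, were each listed in the male VTA, the male NAc core and the female NAc shell. Usp36 was at 0.17 ± 0.07, 0.15 ± 0.06 and -0.14 ± 0.06 there, and Usp19 at 0.12 ± 0.05, 0.11 ± 0.05 and -0.13 ± 0.05. Usp49 was at 0.22 ± 0.10 in the male NAc core, 0.25 ± 0.12 in the female VTA and -0.28 ± 0.10 in the female NAc shell. Usp11 was at 0.18 ± 0.06 in the female VTA and 0.11 ± 0.05 in the female NAc shell (-0.062 ± 0.090 in the shell with prep batch as a term). Usp31 was lower in the male VTA (-0.41 ± 0.16), and Usp39, a splicing factor without ubiquitin protease activity, was lower in the male NAc shell (-0.14 ± 0.06) and higher in the female VTA (0.12 ± 0.06).

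The third comparison set males against females with treatment as a term. Sex, box and nearly all prep batches went together and cannot be told apart. In the NAc core 35 of the 125 genes differed (13 higher and 22 lower in males; 32.9% of all genes did), in the NAc shell 28 (10 higher and 18 lower; 21.0%) and in the VTA 1, lower in males (2.33% of all genes, 0.824% higher and 1.5% lower). The VTA count was 7 by DESeq2's test, 2 with at least 10 counts in every library, 2 with all 96 libraries and 0 with prep batch as a term. The shares over all genes in these 4 alternatives are not given here, so nothing is read from the changes. With treatment alone as a term, 15.5% of all genes were higher and 17.5% lower in males in the core, and 10.9% and 10.1% in the shell. Of the 22 USP genes, 9 were lower and none higher in males in the core, and 9 lower and 1 higher in the shell. Of the 29 proteasome genes, 3 were higher in the core and 5 in the shell and none lower.

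The ligase subunit Fbxo30 was lower in males in the core (-0.49 ± 0.07; adjusted p = 6.3e-06) and in the shell (-0.65 ± 0.10; adjusted p = 1.6e-05). Usp16, a histone H2A deubiquitinase, was lower in males in the core (-0.41 ± 0.06; adjusted p = 7.1e-06), as was Usp34 (-0.27 ± 0.04; adjusted p = 2.7e-05). In the shell Fbxo33 (-0.31 ± 0.05; adjusted p = 7.1e-05) and Usp33 (-0.24 ± 0.04; adjusted p = 0.00016) were lower in males. In the VTA the gene that passed was Psma4, lower in males (-0.14 ± 0.04; adjusted p = 0.048), and Fbxo30 had an estimate of -0.31 ± 0.09 (adjusted p = 0.053). With prep batch as a term the NAc core could not be fitted, since no batch held both sexes there. Elsewhere only batch L held both. In the VTA it held 2 male NIC libraries, 1 female NIC and 2 female SAL libraries, and none of the 125 genes passed by edgeR. In the NAc shell it held 1 male NIC and 1 female SAL library, so no count is given. With so few libraries, a missing call does not show that a difference is absent. In these fits Fbxo30 was at -0.49 ± 0.43 in the shell and -0.29 ± 0.19 in the VTA, Psma4 at -0.28 ± 0.09 in the VTA, and in the shell Fbxo33 at -0.04 ± 0.22 and Usp33 at -0.15 ± 0.16.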

How the data were processed

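The VTA, NAc core and NAc shell of 32 rats were measured by paired-end RNA-seq. By the study's methods and the submitters' processing notes, the authors trimmed reads with fastp 0.20.0, quantified them with Salmon 0.12.0 against version 6 of the rat assembly and used tximport for gene-level values. The deposited values are estimated counts, already whole numbers and not normalized. Strand handling is not given in the sources used here. Genes were tested with the quasi-likelihood test of edgeR 4.0.16 in R 4.3.3 (TMM scaling, Benjamini-Hochberg adjustment), after keeping the 16879 of 17637 genes with a size-factor-normalized count over 10 in at least 3 libraries. DESeq2 1.42.0 was an alternative. CPM values are TMM-scaled and not divided by length, so they serve to compare libraries and not genes. Tables from the study supplied symbols, chromosomes and which genes each table lists, and none of their fold changes or p-values was used.

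Of 96 libraries, 94 were used, those the study itself retained in its clustering: a repeat library of male VTA SAL replicate 5 and female NAc core NIC replicate 1 were left out and enter only an alternative. Groups came from the labels. Regions were compared in a fit of 12 groups, averaged over sex and treatment. NIC and SAL were compared within region and sex. Rats are taken as separate animals by their numbers in the titles. The numbers pair the regions of a rat: the median correlation of same-rat deviations was 0.087 between core and shell against -0.013 for other pairs, 0.034 between VTA and core and 0.033 between VTA and shell. NIC and SAL rats share no number.

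The genes, motifs and lists were chosen with earlier results of these data known. Genes named in the text were, per class, the 2 with the largest VTA-core and the 1 with the largest core-shell difference (adjusted p under 0.05, mean of at least 1 CPM) and the one with the highest CPM; the 27 listed in at least 2 sensitization tables; the 2 highest and 2 lowest by estimate over SE in each nicotine comparison; the 3 with the smallest p per region between the sexes; Ube3a, Fbxo2, Psmb8 and Psmb10; and those at the extremes of level and nearest the p threshold of 0.05. Others were added after their values were seen. CPM ranked genes there only to choose names; at the extremes were Trim10 (mean 0.44 CPM) and Trim35 (337 CPM). The edgeR test was run first on simulated counts with known changes, for the region fit and the male NAc core nicotine fit. The other fits were not simulated. The precision of an estimate is its SE. A result on a further gene is not reported here.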

Additional observations from a re-analysis of the deposited data

Results flagged for a closer look

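Of 120 groups of values examined, 10 held a library set apart from the rest of its group by Dixon's criterion, and chance gives about 1 in 20. The summed CPM of the HECT ligases was 353 in male NAc core NIC replicate 9, where the others lay between 223 and 284. The summed F-box level was 1550 in male NAc shell SAL replicate 6 (others 1237 to 1314), and Fbxo28 was 19.4 CPM in the same library (others 12.7 to 15.8). The summed TRIM level was 870 (others 961 to 1025) and the summed USP level 1537 (others 1629 to 1710) in male VTA NIC replicate 15. The summed USP level was 2023 in male NAc shell SAL replicate 7 (others 1749 to 1852). Hectd3 was 55.4 CPM in female NAc shell NIC replicate 7 (others 39.6 to 44.0) and 65.3 CPM in SAL replicate 10 (others 53.0 to 56.5), both from prep batch J. Fbxl5 was 71.1 CPM in male NAc shell SAL replicate 1 (others 79.8 to 86.7), and Fbxw7 was 51.2 CPM in male VTA SAL replicate 1 (others 27.7 to 35.6).

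Outside the libraries compared, the one labelled female NAc core NIC replicate 1 held 388 CPM of the dopamine transporter Slc6a3, against at most 0.92 in the 31 NAc core libraries used. Its 29 proteasome genes summed to 3389.7 CPM.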

How the results depend on the processing

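With the rat as a replicate block, pairing the regions of an animal, 104, 110 and 40 of the 125 genes differed between VTA and NAc core, VTA and NAc shell, and NAc core and NAc shell; the block moved no count by 1.5 times. With saline libraries alone these counts were 94, 101 and 30, and the VTA-shell estimate of Psmb3 turned to -0.003. For the block and saline fits the shares over all genes are not given here. No paired analysis of NIC and SAL was possible because their rats share no number.

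Between the sexes, the VTA count of 1 became 7 with DESeq2's test, 2 with at least 10 counts in every library, 2 with all 96 libraries and 0 with prep batch as a term. The shares over all genes in these fits are not given here. In the NAc shell the prep batch fit rests on 1 male and 1 female library, so its count is not given. With prep batch the nominal nicotine counts became 6 in the male VTA (763 of all 16879 genes), 17 in the male NAc shell (2013) and 2 in the female VTA (295). They became 2 in the female NAc core (774 of all genes) and 6 in the female NAc shell (629). The number of lower proteasome genes of 29 became 26, 20 and 26, and of the 36-gene list 28, 24 and 30, in the male VTA, female NAc core and female NAc shell. Estimates that turned with prep batch included Fbxl16 between the sexes in the NAc shell (-0.32), Psma7 (-0.014), Ube2d2 (-0.0006) and Usp27x (-0.058) in the female NAc core, Ube2e1 in the female VTA (-0.036), and Usp11 (-0.062) and Usp27x (-0.040) in the female NAc shell. The cause was not tested.

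Leaving out 1 library at a time gave 8 to 20 nominal genes in the male VTA (8 without NIC replicate 13, 9 without SAL replicate 2 or 8), 21 to 38 in the male NAc core (21 without NIC replicate 9, 22 without SAL replicate 3), 7 to 16 in the male NAc shell (7 without SAL replicate 5), 15 to 25 in the female VTA (15 without NIC replicate 6, 17 without NIC replicate 8, SAL replicate 12 or SAL replicate 14), 11 to 19 in the female NAc core and 14 to 30 in the female NAc shell. The counts over all genes moved as well. In females they ran from 1115 to 2071 in the VTA, from 868 to 1341 in the NAc core and from 1192 to 2503 in the NAc shell. Lower proteasome genes numbered 27 to 28 in the male NAc core, 21 to 27 in the male NAc shell, 13 to 19 in the male VTA, 2 to 9 in the female NAc core, 2 to 5 in the female NAc shell and 2 to 4 in the female VTA. For genes under 1 CPM, such as Trim10 and Ube2u, few counts limit the precision.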
